A study of Mus musculus with 6 samples.

Results

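Long non-coding RNA (lncRNA) genes that lie over a protein-coding gene on the other DNA strand were examined in mouse trigeminal ganglion. A listed lncRNA gene was taken when its mean over the 6 libraries was at least 20 normalised reads and its span overlapped a listed protein-coding gene of the opposite strand by 1 bp or more. The loci were thus chosen by their mean level over both groups together, not by a difference between them. By this rule 655 loci were taken from 16415 listed genes, of which 1644 are lncRNAs and 1136 are lncRNAs at that level. Of the remaining lncRNAs at that level, 381 overlap no listed gene on either strand and 100 overlap others. The protein-coding gene that shares most bases with a locus is called its partner here, and the 655 loci have 628 different partners.

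The trigeminal ganglion holds the cell bodies of the sensory neurons of the face and the meninges, with their satellite glia and Schwann cells. All 6 libraries came from wild-type mice, 3 given the treatment NC-up and 3 given the treatment SETDB2-up, and the series' title places the experiment in work on SETDB2, the factor KLF4 and migraine. The labels do not say what carries either treatment, which cells receive it, the dose, the time or the animals' age, so a group is known only by these names. Nothing in the labels says that the libraries of a group came from separate animals, and the p-values then measure only the spread between these libraries.

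A transcript made from the strand opposite a gene is called antisense to it. Many antisense lncRNAs begin near the start of the gene they face, in the divergent or head-to-head arrangement, while others begin beyond its end or inside it. Some act on their own locus, as Airn, Kcnq1ot1 and Snhg14 do at imprinted genes, and for most no role is known. SETDB2 belongs to a family of enzymes that methylate lysine 9 of histone H3, a mark of silent chromatin.

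The start windows of 4 loci are shown as examples of where these lncRNAs begin. They belong to 3 loci that fell by a large factor from a high level (Gm46526, Gm45972 and Gm36629) and to Gm26782, which rose. Each window is 300 bases of RefSeq sequence on the GRCm38.p6 build, 250 before and 50 after the annotated lncRNA start, written 5′ to 3′ along the lncRNA strand. The capitals mark CACCC or its complement GGGTG, the core of sites bound by Kruppel-like factors, and GGGCGG or its complement CCGCCC, the GC box. No marked match overlaps another.
Gm46526: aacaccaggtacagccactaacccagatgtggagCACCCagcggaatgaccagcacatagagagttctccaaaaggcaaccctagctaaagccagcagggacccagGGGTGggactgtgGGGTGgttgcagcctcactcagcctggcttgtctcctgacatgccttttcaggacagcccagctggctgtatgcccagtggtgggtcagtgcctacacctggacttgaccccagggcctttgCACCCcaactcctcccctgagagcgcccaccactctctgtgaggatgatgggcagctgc
Gm45972: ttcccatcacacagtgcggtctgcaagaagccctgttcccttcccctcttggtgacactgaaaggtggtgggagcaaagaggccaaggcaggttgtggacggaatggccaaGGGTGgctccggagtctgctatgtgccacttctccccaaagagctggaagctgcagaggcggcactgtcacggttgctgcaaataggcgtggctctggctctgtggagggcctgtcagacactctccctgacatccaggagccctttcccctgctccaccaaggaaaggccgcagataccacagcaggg
Gm36629: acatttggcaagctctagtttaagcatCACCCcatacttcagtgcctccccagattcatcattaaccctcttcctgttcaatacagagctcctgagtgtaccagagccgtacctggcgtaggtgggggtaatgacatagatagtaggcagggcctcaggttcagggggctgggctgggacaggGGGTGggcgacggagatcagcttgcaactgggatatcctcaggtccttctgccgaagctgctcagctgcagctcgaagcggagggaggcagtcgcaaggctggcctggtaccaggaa
Gm26782: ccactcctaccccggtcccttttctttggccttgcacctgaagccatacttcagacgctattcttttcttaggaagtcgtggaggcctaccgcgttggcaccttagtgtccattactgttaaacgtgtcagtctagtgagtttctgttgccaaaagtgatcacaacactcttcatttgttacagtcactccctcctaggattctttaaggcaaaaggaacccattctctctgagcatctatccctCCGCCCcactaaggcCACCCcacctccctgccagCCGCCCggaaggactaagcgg

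The window of Gm46526 (chr15:84104591-84104890, plus strand) holds 4 CACCC cores and lies wholly within the gene of its partner, Sult4a1, with 0 bases in exons of the partner. The windows of Gm45972 (chr7:16921423-16921722, plus strand) and of Gm26782 (chr14:50870046-50870345, plus strand) also lie wholly inside their partners, Calm3 and Tep1, with 0 exonic bases. The first holds 1 CACCC core, and the second holds 1 CACCC core and 2 GC boxes. The window of Gm36629 (chr19:8921793-8922092, minus strand) holds 2 CACCC cores, and 175 of its bases are exonic in the partner B3gat3. Thus each of these lncRNAs starts within the body of the gene it faces.

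RefSeq start windows were matched for 507 of the 655 loci. A CACCC core on either strand was present in 64.9% of them, in 63.5% of the windows of 11635 listed protein-coding genes and in 57.5% of all 32851 windows of the same length. A GC box was present in 36.3%, against 62.3% and 35.7%. The median window held 10 CpG dinucleotides, between the 20 of protein-coding starts and the 7 of all windows. Among the loci that fell, 76 of 102 windows (74.5%) held a CACCC core, and among those that did not pass the test 250 of 401 (62.3%) did. The shares are given as a description with no test, and a match is not evidence of binding.

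Reads recovered per library numbered 19334997 to 23501386, and all 655 loci were tested. Setdb2 itself was at 69.9, 58.4 and 71.5 normalised reads in the NC-up libraries and at 113, 97.6 and 104 in the SETDB2-up libraries (log2 change 0.65 ± 0.19, SE; adjusted p 0.0253 by limma), higher in every SETDB2-up library. Of 18 liver markers listed, 11 rose and 0 fell, and their summed level was 4289 to 5334 in NC-up while SETDB2-up libraries 1, 2 and 3 had 7858, 11679 and 5447. Of the muscle markers, 4 of 7 listed fell, with sums of 1963 to 2104 against 873 to 991, and of the keratinocyte markers 5 of 7 fell, with sums of 334 to 753 against 282 to 298. Of the 12 neuronal markers 1 fell and 2 rose, of the 8 glial markers 2 fell and 1 rose, and of the 5 red blood cell markers 1 fell and 0 rose. None of the 655 loci is in these lists, and the part of other tissue in the results below was not tested. In bulk tissue, fewer cells of a type and less RNA per cell cannot be told apart.

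The loci were mostly weak beside the genes they face. Their mean over the 6 libraries ran from 20.04 to 32768 normalised reads with a median of 56.6, and 621 of the 655 had fewer reads than their partner. The median span of a locus was 9283 bp. The median stretch shared with the partner was 3354 bp, with a range of 4 to 208974 bp, and the median share of the span that lay over the partner was 55.3%. Per kb of exon, known for both genes at 399 loci, 62 lncRNAs stood above the partner and 116 at 0.1 of it or less. Just outside the level rule were Gm39195 and LOC105246914, with means of 19.9 and 19.98, and just inside were Far1os and 2610020C07Rik, with 20.04 and 20.08.

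In SETDB2-up, 126 of the 655 loci (19.2%) fell and 6 (0.916%) rose at an adjusted p under 0.05 (limma on log2(value + 1), adjusted over all 16387 genes tested). Over all genes tested, 8.71% fell and 7.71% rose, 16.4% in either direction. The median log2 fold change was -0.19 over the loci and 0.00 over all genes, and 444 of the loci were below 0 and 211 above. Falls of at least 2-fold numbered 53 and rises 0, where the background is 0.793% and 0.281% of all genes. The 126 loci that fell ran from a log2 fold change of -2.30 to one of -0.26, with a median of -0.93. Of these, 14 had a SETDB2-up mean under 20 normalised reads and met the level rule through their NC-up level.

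All 3 SETDB2-up libraries lay below all 3 NC-up libraries at 207 loci (background 16.4%) and above them at 31 (background 16.8%). The 381 lncRNAs with a mean of at least 20 that overlap no listed gene had 12 falls, 16 rises and a median of 0.08. Protein-coding genes that face another protein-coding gene with at least 4 times their reads numbered 563, with 63 falls, 21 rises and a median of -0.09. These sets of genes were not matched for level, and the differences between them were not tested.

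Partners fell and rose in similar numbers. Of the 628 partners, 73 fell and 55 rose, with a median log2 fold change of -0.02. Over all genes tested, 8.71% fell and 7.71% rose. Of the 126 loci that fell, 99 had a partner that did not pass the test, 22 a partner that fell and 5 a partner that rose. Of the 523 loci that did not pass, the partner did not pass at 418, fell at 55 and rose at 50. The difference between these loci was not tested. Across the 655 loci the log2 fold changes of lncRNA and partner had a Pearson correlation of 0.15, a description only, since both come from the same 6 libraries and some loci share a partner.

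**Figure D1:**
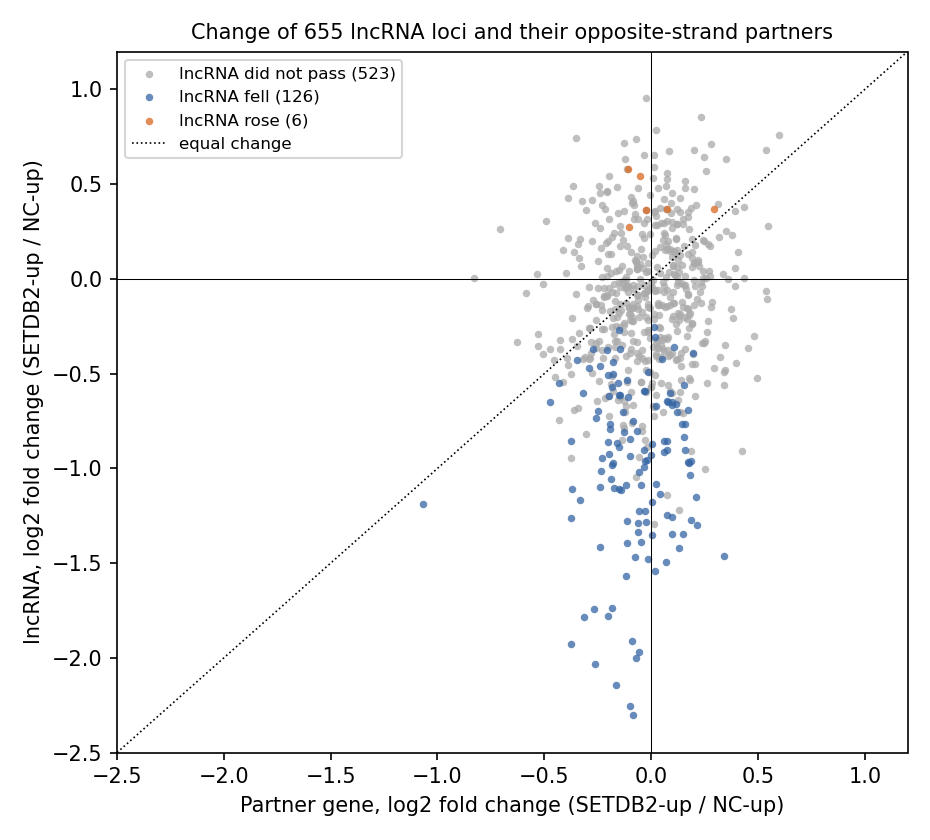
Log2 fold change of each lncRNA (vertical axis) against that of its partner (horizontal axis), 1 point for each of 655 loci, coloured by whether the lncRNA fell (126), rose (6) or did not pass the test (523). The loci that fell spread downward to -2.30 while most of their partners stay near 0.

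The reads on the lncRNA per 100 reads on its partner put the pair on one scale within a library. The median over all 655 loci was 7.17, 7.10 and 7.16 in NC-up and 6.13, 5.99 and 5.49 under SETDB2-up, so that the groups did not overlap. The loci together took 0.852%, 0.851% and 0.817% of the listed reads in NC-up and 0.753%, 0.774% and 0.709% under SETDB2-up. Their partners took 9.14%, 9.20% and 9.11% against 8.98%, 9.14% and 8.997%, where the groups overlap.

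The ratio of lncRNA to partner was tested with limma over 2385 pairs of listed genes on opposite strands. It fell at 76 loci and rose at 3 at an adjusted p under 0.05, against 6.21% and 0.629% of all such pairs (6.83% in either direction). Of the 126 lncRNAs that fell, 69 also fell relative to the partner. This count depends on the setting: edgeR on recovered reads gave 119 lower ratios, leaving out 1 library 19 to 42, the replicate number as a block 2, and leaving out both SETDB2-up libraries 1 and 2 gave 0. No ratio call printed below passed the test in every setting.

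The loci were divided by the part of the partner that lies under the span of the lncRNA gene, its introns included. Each locus was put in 1 class by order. A locus over any 3′ UTR base counted as 3′ UTR, whatever else it covered. Of the rest, a locus over any coding base counted as coding exon, and one over other exon bases as 5′ UTR. Over coding exons 65 of 258 loci fell and 1 rose (median -0.34), and over 5′ UTR exons 25 of 105 fell and 1 rose (median -0.26). Over 3′ UTR exons 30 of 204 fell and 2 rose (median -0.13). Where the lncRNA lay over partner introns alone, 6 of 84 fell and 2 rose (median -0.04), a share of 7.14% beside the 8.71% of all genes. The remaining 4 loci had a partner without an exon model, and 0 of them passed the test. The median level was 38.3 normalised reads for loci over introns alone and 59.8 for loci over partner exons, and the test has less power at low reads. The differences between these classes were not tested.

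The 6 falls over introns alone, named after their values were seen, were 4930413G21Rik opposite Rbbp6, E530011L22Rik opposite Zfp651, Gm32790 opposite Arhgef4, Gm42008 opposite Cit, Gm52688 opposite Prdm16 and Gm52814 opposite Jakmip1. The highest of them, 4930413G21Rik, was at 427, 522 and 503 in the NC-up libraries and 333, 283 and 256 in the SETDB2-up libraries. All SETDB2-up libraries were lower there, and the log2 difference between the group means was -0.74 ± 0.12 (SE), with an adjusted p of 0.000362 from limma. Its partner Rbbp6 fell too (log2 fold change -0.26, limma adjusted p 0.012), though not in 2 of 15 other settings. The ratio of the pair did not pass the test (log2 difference -0.48, limma adjusted p 0.0563). The other 5 lncRNAs did not pass in 4 to 6 of the 13 or 15 other settings, among them for each leaving out SETDB2-up library 1.

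**Figure D2:**
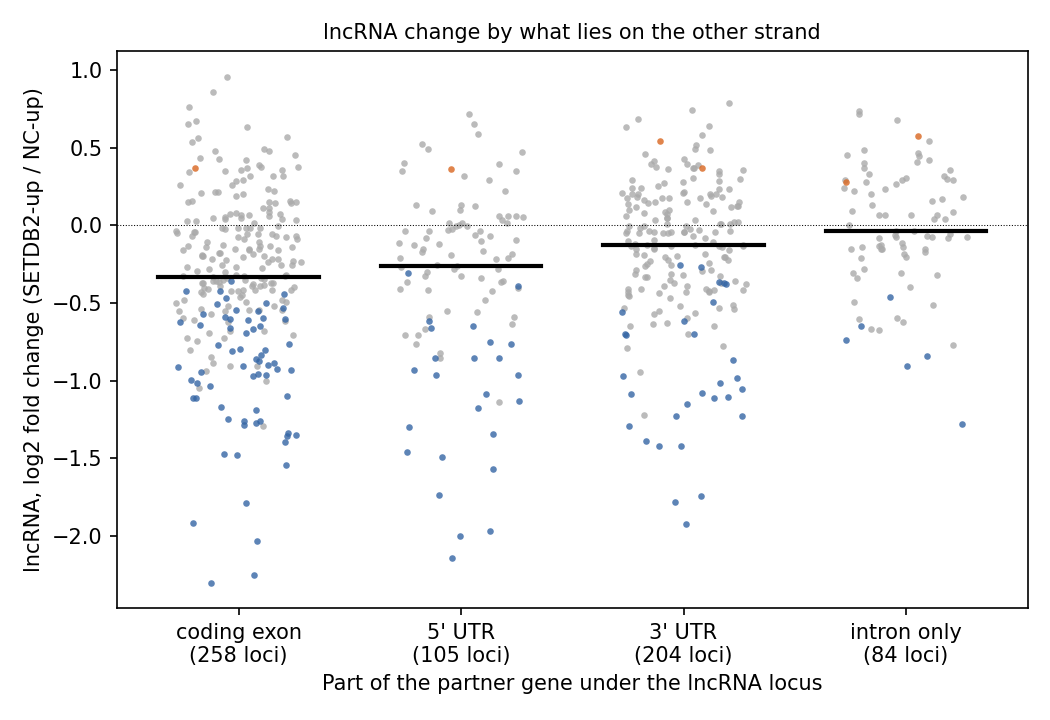
Log2 fold change of the lncRNAs (vertical axis) by the part of the partner gene under the locus (horizontal axis), 1 point per locus, blue for falls, orange for rises, grey for neither and a black line at the median. Each locus is in 1 class, with 3′ UTR taken before coding exon and coding exon before 5′ UTR. The medians are -0.34 over coding exons, -0.26 over 5′ UTR, -0.13 over 3′ UTR and -0.04 over introns alone.

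By arrangement, 69 of 259 head-to-head loci fell and 2 rose (median -0.32), and 33 of the 53 falls of at least 2-fold were among them. Over all loci 19.2% fell, and over all genes tested 8.71%. Of the 208 loci lying inside the partner, 31 fell and 2 rose (median -0.14). Of the 169 tail-to-tail loci, 24 fell and 2 rose (median -0.13), and of the 19 loci that enclose the partner 2 fell and 0 rose (median 0.01). Head-to-head loci over partner exons fell in 66 of 229 cases, and head-to-head loci over introns alone in 3 of 30. Partner exons were again counted under the whole span of the lncRNA gene. Whether exons of the lncRNA itself overlap those of the partner was not examined, and the differences between arrangements were not tested.

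The head-to-head loci over partner exons had a median of 7.16, 6.98 and 7.35 reads per 100 partner reads in NC-up and 5.48, 5.36 and 5.20 under SETDB2-up. No SETDB2-up library reached the NC-up libraries. For the 84 loci over introns alone the medians were 3.55, 4.61 and 4.43 against 3.58, 4.55 and 3.68. Here the groups overlap.

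**Figure D3:**
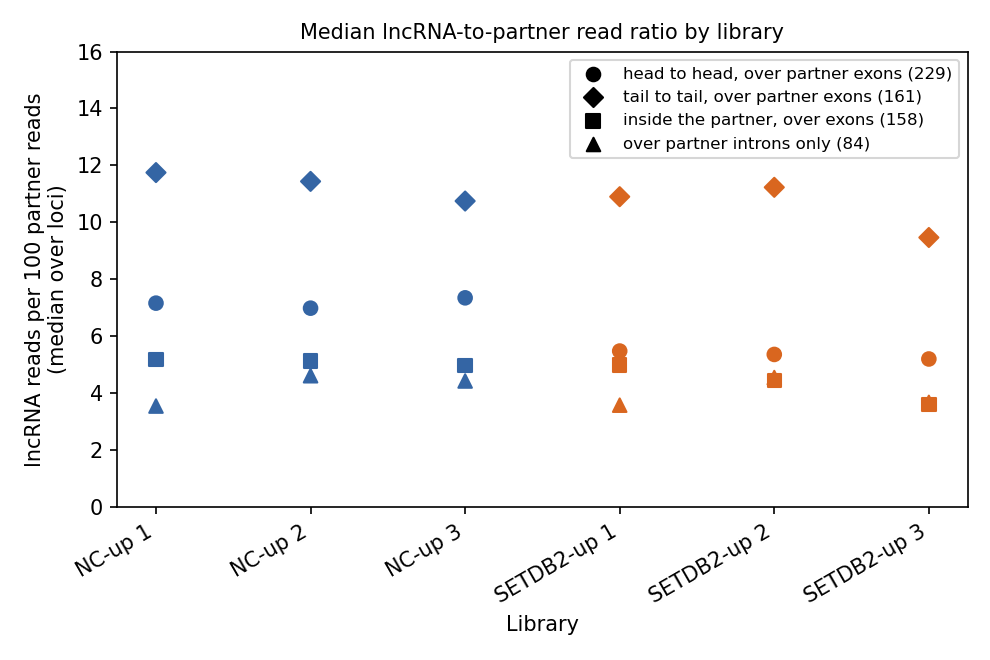
Median reads of the lncRNA per 100 reads of its partner (vertical axis) in each library (horizontal axis), blue for NC-up and orange for SETDB2-up, with 1 symbol for each of 4 arrangements. The circles, for 229 head-to-head loci over partner exons, lie at 6.98 to 7.35 in NC-up and 5.20 to 5.48 in SETDB2-up, while the triangles, for 84 loci over introns alone, overlap between the groups.

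By the length of partner exon under the locus, falls numbered 0 of 32 at 1 to 100 bases, 26 of 121 at more than 100 and up to 300 bases, 67 of 229 above that and up to 1000, and 27 of 185 above 1000. By mean level, 25 of 296 loci fell at 20 to 50 normalised reads, 32 of 149 at 50 to 100, 41 of 141 at 100 to 300 and 28 of 69 above 300. The test has less power at low reads. Of the 34 loci with more reads than the partner, 3 fell and 2 rose. Beside all of these counts stand falls of 19.2% over all loci and 8.71% over all genes tested, and the differences were not tested.

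No source used here gives the strand setting of the authors' counting, and reads in a stretch that both strands share are uncertain for both genes if strand was not used. The library kit is described as strand-specific, but if it marked strand incompletely, reads from a partner's exons could be counted for the lncRNA even with stranded counting. The part of either in the falls was not tested. Those falls were more numerous over partner exons than over introns alone, where the median level was also lower.

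Gm46526 (chr15:84104841-84110040, plus strand) had the most reads of the 8 largest falls. It lies head to head with Sult4a1, a sulfotransferase of the nervous system, shares 914 bp with it and covers 324 bases of its exons. Gm46526 was at 1105, 1068 and 1069 in the NC-up libraries and 213, 239 and 227 in the SETDB2-up libraries (normalised reads, as below). The SETDB2-up libraries all lay far below the NC-up libraries, and neither group spread widely. The log2 difference between the group means was -2.25 ± 0.09 (SE), with an adjusted p of 5.91e-12 from limma, a 4.77-fold fall. Sult4a1 was at 18121, 19578 and 20168 against 16698, 17670.5 and 19817, with overlapping groups (log2 fold change -0.10, adjusted p 0.329). Per 100 Sult4a1 reads there were 6.1, 5.45 and 5.3 against 1.27, 1.35 and 1.14 Gm46526 reads, and the ratio fell by a log2 difference of 2.16 (limma adjusted p 0.00646).

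Gm45972 (chr7:16921673-16924518, plus strand) faces Calm3, which encodes calmodulin, the calcium sensor that regulates many enzymes and channels. It was at 714, 729 and 691 in the NC-up libraries and 180.5, 250.2 and 147 in the SETDB2-up libraries. All SETDB2-up libraries were low, library 2 the least so, and the groups did not overlap. The log2 difference between the group means was -1.91 ± 0.14 (SE), with an adjusted p of 5.98e-08 from limma. Calm3, among the most abundant partners, was at 41044, 42512 and 44372 against 38463, 38252 and 43824, with overlapping groups (adjusted p 0.363). The ratio of the pair fell by a log2 difference of 1.83 (limma adjusted p 0.0198), but did not pass in 7 of 13 other settings, among them the replicate block and leaving out any single library but SETDB2-up library 2 (adjusted p 0.0503 to 0.0692).

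Gm36629 (chr19:8918599-8921842, minus strand) starts over an exon of B3gat3, the glucuronosyltransferase that completes the linker on which glycosaminoglycan chains are built. It was at 525, 522 and 530.1 in the NC-up libraries and 139.6, 154 and 163 in the SETDB2-up libraries. The NC-up libraries were nearly equal and all lay above the SETDB2-up libraries. The log2 difference between the group means was -1.79 ± 0.11 (SE), with an adjusted p of 9.43e-09 from limma. B3gat3, at 3518, 4099.9 and 4185 against 3004, 3051 and 3441, fell as well (log2 fold change -0.31, adjusted p 0.00571, not past the threshold with a GC correction). The ratio fell by a log2 difference of 1.47 (limma adjusted p 0.00751).

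Gm46295 (chr11:100938338-100940242, plus strand) lies over the start of Stat3, a transcription factor downstream of cytokine receptors. It was at 86.9, 117 and 93.0 in the NC-up libraries and 23.7, 23.4 and 24.1 in the SETDB2-up libraries. The SETDB2-up libraries were nearly equal and low, with no overlap. The log2 difference between the group means was -2.002 ± 0.25 (SE), with an adjusted p of 3.32e-05 from limma, while Stat3 had a log2 fold change of -0.07 (adjusted p 0.41). The ratio of the pair fell by a log2 difference of 1.93 (limma adjusted p 0.0092).

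The other 5 of the 8 largest falls were weak loci, at under 100 normalised reads in every library. All 5 had a SETDB2-up mean under 20 and met the level rule only through their NC-up level. Gm38426 (chr8:84913335-84922915, plus strand), inside Mast1, a microtubule-associated kinase of neurons, was at 49.8, 40.2 and 67.9 in the NC-up libraries and 15.2, 8.14 and 7.14 in the SETDB2-up libraries. Its log2 change of -2.30 ± 0.38 (SE, adjusted p 0.000555 by limma) is the largest fall of all 655 loci, and Mast1 was at -0.09 (adjusted p 0.327). Gm52180 (chr15:82265539-82275444, minus strand) faces Septin3, a septin of neurons, and was at 79.5, 93.9 and 54.5 in the NC-up libraries and 13.3, 28.5 and 10.7 in the SETDB2-up libraries. The highest SETDB2-up library, number 2, was still below the lowest NC-up library. The log2 difference between the group means was -2.14 ± 0.35 (SE), with an adjusted p of 0.000484 from limma, and that of Septin3 was -0.16 (adjusted p 0.0518).

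LOC115486434 (chr2:164168615-164177412, plus strand) faces Kcns1, a modulatory subunit of voltage-gated potassium channels, and was at 45.6, 53.6 and 54.5 in the NC-up libraries and 12.3, 13.2 and 9.82 in the SETDB2-up libraries. The groups lay well apart, and the log2 difference between the group means was -2.03 ± 0.34 (SE), with an adjusted p of 0.000506 from limma. Gm32184 (chr13:41513893-41606076, minus strand) shares 195 bp with the start of Tmem170b, and was at 25.4, 39.3 and 34.0 in the NC-up libraries and 6.65, 10.2 and 6.25 in the SETDB2-up libraries. It differed by -1.97 ± 0.43 (SE) on the log2 scale, with an adjusted p of 0.00421 from limma. C430014B12Rik (chr1:82691527-82725921, minus strand) runs into the end of Col4a3, a collagen of basement membranes, and was at 61.4, 30.6 and 53.6 in the NC-up libraries and 12.3, 8.14 and 15.2 in the SETDB2-up libraries. All SETDB2-up libraries were lower at both loci, and the log2 fold change of C430014B12Rik was -1.92 ± 0.38 (SE, adjusted p 0.00221 by limma). Its ratio to Col4a3 did not pass the test (log2 difference -1.55, adjusted p 0.0873).

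**Figure D4:**
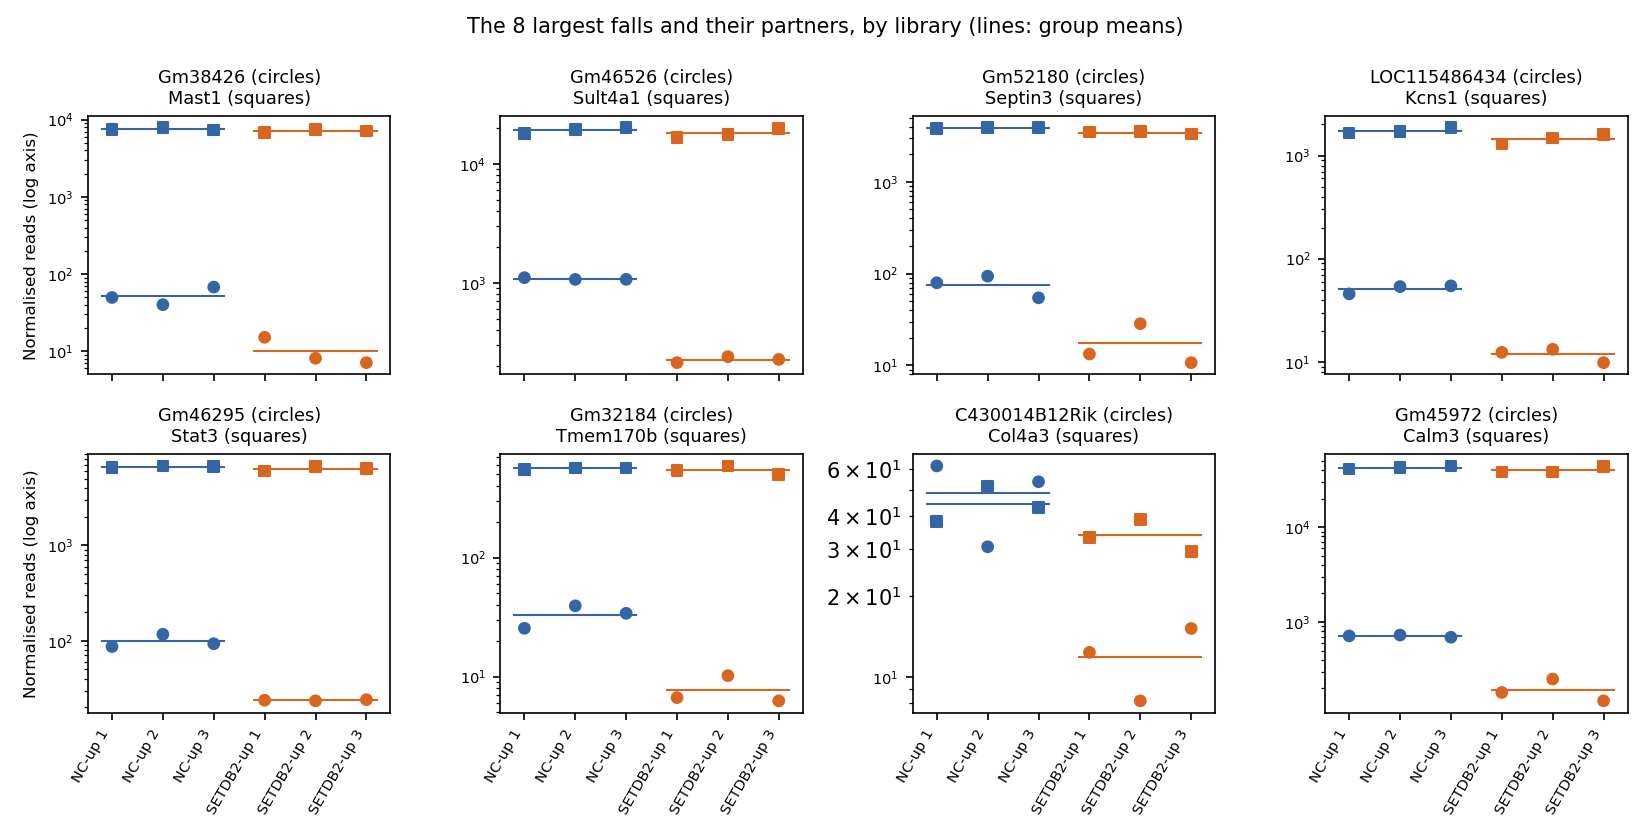
Normalised reads on a log axis (vertical) in each of the 6 libraries (horizontal) for the 8 loci with the largest falls (circles) and their partners (squares), blue for NC-up and orange for SETDB2-up, with lines at the group means. The circles of Gm46526 drop from 1068 to 1105 down to 213 to 239, while the squares of its partner overlap between the groups.

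SETDB2-up libraries 1 and 2 hold the higher liver marker sums. With both left out, SETDB2-up is a single library assumed to vary like the others, and 47 of the 655 loci fell (7.18%) beside 1.84% of all genes. The median over the loci was then -0.29, and 45 of the 47 were among the 126. Of the 8 largest falls, Gm32184 and C430014B12Rik did not pass the test in that setting.

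Partners were put in groups by their gene symbols alone. In the ion channel group, 23 loci faced 19 genes, and 3 of the loci fell and 0 rose (median -0.21). Over all 655 loci 19.2% fell and 0.916% rose, and over all genes tested 8.71% fell and 7.71% rose. These shares apply also to the partner groups that follow, which are small, and no group was tested against them. Of the 19 genes themselves, 3 fell and 3 rose. Besides LOC115486434, the falls were Kcnmb4os2 and Gm39212. Kcnmb4os2, opposite the BK channel subunit Kcnmb4, was at 248, 279 and 215 in the NC-up libraries and 95.0, 117 and 95.5 in the SETDB2-up libraries. All SETDB2-up libraries were below the NC-up libraries, with a log2 change of -1.26 ± 0.15 (SE) at an adjusted p of 3.05e-05 in limma. Kcnmb4 fell too (log2 fold change -0.38, adjusted p 0.017), and the ratio of the pair fell by a log2 difference of 0.88 (adjusted p 0.0092). The fall of Kcnmb4 did not pass without NC-up library 1 or 2 or SETDB2-up library 1, and that of the ratio not with the block or a GC correction.

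Gm39212, inside the calcium channel gene Cacna1a, was at 458, 417 and 373 in the NC-up libraries and 269.8, 286 and 281 in the SETDB2-up libraries. The groups did not overlap (log2 change -0.57 ± 0.11, SE; adjusted p 0.00154 by limma). A second locus inside Cacna1a, Gm16183, was at 65.7, 59.4 and 62.6 against 41.8, 67.1 and 50.9, with overlapping groups and a log2 fold change of -0.25 (adjusted p 0.51). The channel genes that rose were Scn9a, the sodium channel of nociceptors, Kcnh7 and Kcnab1. Their antisense loci had log2 fold changes of 0.17 for Gm13629, -0.30 for Gm34110 and 0.57 for A330015K06Rik (limma adjusted p 0.595, 0.334 and 0.125). The rises of Scn9a and Kcnab1 did not pass with a GC correction or without SETDB2-up library 1. The genes of this symbol group that fell were Cacng2, Kcnmb4 and Kcns1. Cacng2 had a log2 fold change of -0.47 (limma adjusted p 0.00297). Kcns1 had one of -0.26 (limma adjusted p 0.0277), not past the threshold in 7 of 15 other settings.

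The most abundant channel locus did not pass the test without a GC correction. A430018G15Rik, opposite the calcium channel subunit Cacnb4, was at 874, 916 and 897 against 911, 929 and 797. The groups overlap, and its log2 fold change was -0.03 (limma adjusted p 0.831). With a GC correction it passed the test as a fall (log2 fold change -0.25, adjusted p 0.0357).

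Of 12 loci facing chromatin enzymes, 3 fell and 0 rose (median -0.08), and of the 11 enzymes 1, Setd7, rose and 0 fell. Gm39326, head to head with Kmt2a, a methyltransferase of lysine 4 on histone H3, was at 136, 159.9 and 138 in the NC-up libraries and 61.7, 54.9 and 62.5 in the SETDB2-up libraries. The groups lay far apart, with a log2 change of -1.26 ± 0.18 (SE) at an adjusted p of 0.000164 in limma, beside 0.10 for Kmt2a (adjusted p 0.459). The other falls were Gm34939 opposite Smarcd1, a subunit of the BAF remodelling complex, and 5830433I10Rik opposite the remodeller Chd1, with log2 fold changes of -0.92 and -0.75 (adjusted p 0.00308 and 0.00711). The most abundant loci of this group, 5031425E22Rik opposite Kmt2e and Gm32483 opposite Chd3, had log2 fold changes of -0.14 and 0.32 (adjusted p 0.408 and 0.15).

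Of 20 loci facing transcription factors, 2 fell and 0 rose (median -0.18), beside falls of 19.2% over all loci and 8.71% over all genes. The 2 were Gm46295 and E530011L22Rik, the latter at -0.46 (limma adjusted p 0.0286). The fall of E530011L22Rik did not pass with a GC correction or without NC-up library 2 or 3 or SETDB2-up library 1 or 2. Of the factors themselves 4 fell and 0 rose. They were Nr2f1, Nr2f2, Zfp651 and Zfp580, and at Nr2f1 the facing locus A830082K12Rik had a log2 fold change of 0.26 (adjusted p 0.539) beside -0.71 for the gene (adjusted p 6.54e-05). The fall of Zfp651 (log2 fold change -0.24, limma adjusted p 0.0321) did not pass in 7 of 15 other settings, and was at -0.06 with a GC correction. The 2 most abundant loci of the group, D930028M14Rik inside Pou2f2 and B130055M24Rik opposite Zfp689, had log2 fold changes of -0.08 and 0.04 (limma adjusted p 0.563 and 0.806).

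Of 13 loci facing genes of synapse and vesicle traffic, 2 fell and 0 rose (median -0.25). They were A930001C03Rik opposite the synaptotagmin Syt12 and Gm34872 inside Rab7, a small GTPase of late endosomes, with log2 fold changes of -1.05 and -0.91 (limma adjusted p 0.0137 and 0.0121). Rab12 was the only partner of the group that passed, and it fell. 1700022N22Rik opposite Rab11fip3 and Rab10os opposite Rab10 did not pass (log2 fold change -0.25 and 0.17, adjusted p 0.279 and 0.539).

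Of 7 loci facing cytoskeletal and motor genes, 2 fell and 0 rose (median -0.04), while of the 6 partners only Tuba1b passed, and it rose. Kif3c, a subunit of a kinesin of axons, has a locus at each end. I920046F24Rik at its start was at 374, 430.0 and 412 in the NC-up libraries and 207, 171 and 176 in the SETDB2-up libraries, and the SETDB2-up libraries all lay below. It differed by -1.13 ± 0.12 (SE) on the log2 scale, with an adjusted p of 5.82e-06 from limma. At the other end, 1110002L01Rik was at 1577, 1641 and 1630.4 in the NC-up libraries and 1575, 1730.1 and 1656 in the SETDB2-up libraries, with overlapping groups and a log2 fold change of 0.03 (adjusted p 0.777). Kif3c itself was at 9769.7, 10133 and 9723 against 10005, 10231 and 10289.5 (adjusted p 0.614).

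Gm35558, opposite the dynein heavy chain Dync1h1, was the other fall of that group, with a log2 fold change of -0.36 (limma adjusted p 0.00619), and did not pass with a GC correction. A230070E04Rik, head to head with the neurofilament gene Nefm, is the most abundant of all 655 loci, at 31986, 33321 and 34092 in the NC-up libraries and 29783, 32244 and 35179.5 in the SETDB2-up libraries. The groups overlap, and the log2 fold change was -0.04 ± 0.06 SE (adjusted p 0.746).

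Of 3 loci facing mitochondrial genes 1 fell. Gm51883, which shares 225 bp with the end of Uqcr10, a subunit of respiratory complex III, was at 164, 107 and 165 in the NC-up libraries and 43.7, 52.9 and 29.4 in the SETDB2-up libraries. All SETDB2-up libraries were low (log2 change -1.78 ± 0.24, SE; adjusted p 8.58e-05 by limma), and the ratio fell by a log2 difference of 1.58 (adjusted p 0.0234). The ratio did not pass in 7 of 13 other settings, among them the replicate block and leaving out any single library but SETDB2-up library 2 (adjusted p 0.0520 to 0.0742). Ino80dos, facing the complex I gene Ndufs1, had a log2 fold change of -0.00 (adjusted p 0.992), and Ndufs1 one of 0.20 (adjusted p 0.038), which did not pass in 7 of 15 other settings.

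Loci whose symbol ends in os, as or ot, with or without a number after it, mostly named after the gene they face, numbered 40. Of these 7 fell and 0 rose, beside falls of 19.2% over all loci and 8.71% over all genes tested, and their median was -0.08. Fam219aos (chr4:41517437-41518929, plus strand) was the most abundant of the falls, at 634, 575 and 553 in the NC-up libraries and 324, 323 and 317 in the SETDB2-up libraries. The SETDB2-up libraries were nearly equal and all lower, with a log2 change of -0.87 ± 0.09 (SE) at an adjusted p of 9.33e-06 in limma. Its partner Fam219a had a log2 fold change of -0.16 (adjusted p 0.0593).

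Grin1os, inside the NMDA receptor gene Grin1, was at 1282, 1460.5 and 1444 in the NC-up libraries and 1262, 1227 and 1322 in the SETDB2-up libraries, with overlapping groups. Its log2 fold change of -0.13 (limma adjusted p 0.215) stood beside one of -0.15 for Grin1. Brip1os and Gssos2 had log2 fold changes of -0.02 and -0.08 (adjusted p 0.912 and 0.726).

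At 5 loci the lncRNA fell and the partner rose, all of them head to head. Gm6306, opposite Tcp11l1, was at 30.7, 45.0 and 37.5 in the NC-up libraries and 11.4, 16.3 and 11.6 in the SETDB2-up libraries. All its SETDB2-up values were under 20, so Gm6306 met the level rule only through its NC-up level. Tcp11l1 was at 5086, 5549 and 5305 against 6939.6, 7407 and 5947, so that each gene's groups lay apart, in opposite directions. The log2 fold changes were -1.46 and 0.34 (limma adjusted p 0.00979 and 0.00255), and the ratio fell by a log2 difference of 1.80 (adjusted p 0.0136).

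Gm36459 faces Dennd4a, which activates Rab GTPases, with log2 fold changes of -1.30 for the lncRNA and 0.22 for the gene (limma adjusted p 0.0109 and 0.0423). Gm9920 faces Deptor, an inhibitor of mTOR, with -1.27 and 0.19 (adjusted p 0.0242 and 0.035). Gm3625 faces Itsn2, a scaffold of endocytosis, with -0.96 and 0.19 (adjusted p 0.00334 and 0.0479). LOC330143, opposite the matricellular gene Sparcl1 and named after its values were seen, had -0.39 and 0.19 (adjusted p 0.0017 and 0.0238). The ratio of LOC330143 to Sparcl1 did not pass the test (log2 difference -0.59, limma adjusted p 0.0563). The rises of Dennd4a, Deptor and Itsn2 did not pass in 7 to 9 of the 15 other settings tried. That of Sparcl1 did not pass in 4, among them a GC correction, and that of Tcp11l1 in 1. Gm6306 itself did not pass without NC-up library 2 or SETDB2-up library 1, Gm9920 not in 5 settings, 4 of them leaving out NC-up library 2 or 3 or SETDB2-up library 1 or 2, and Gm3625 not with a GC correction (log2 fold change -0.42, adjusted p 0.258). None of Gm6306, Gm36459, Gm9920, Gm3625 and LOC330143 passed without both SETDB2-up libraries 1 and 2.

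Of the 6 loci that rose, 5 had groups that did not overlap, with log2 fold changes of 0.28 to 0.54. Gm35934, at the end of the lipid acyltransferase gene Agpat5, was at 95.3, 98.6 and 85.8 in the NC-up libraries and 136, 131 and 141 in the SETDB2-up libraries. The SETDB2-up libraries all lay above, with a log2 change of 0.54 ± 0.16 (SE) at an adjusted p of 0.0294 in limma. It did not pass in 7 of the 15 other settings. Agpat5 was at 763, 859 and 821 against 837, 796 and 721, with overlapping groups, and the ratio rose by a log2 difference of 0.60 (adjusted p 0.0439). The ratio did not pass in 9 of the 15 other settings, among them the replicate block and leaving out any 1 of the 6 libraries (adjusted p 0.0616 to 0.120).

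Gm31914, inside Nbea, which encodes the trafficking protein neurobeachin, was at 368, 353 and 345 in the NC-up libraries and 482, 461 and 435 in the SETDB2-up libraries, and Gm26782, head to head with the telomerase-associated gene Tep1, at 548, 567 and 592 in the NC-up libraries and 737, 792 and 672 in the SETDB2-up libraries. In both the groups lay apart, with log2 changes of 0.37 ± 0.10 and 0.36 ± 0.09 (SE, adjusted p 0.0133 and 0.00726 by limma). Gm30934, at the end of the ubiquitin ligase gene Ube4a, was at 560.4, 449 and 538 in the NC-up libraries and 668, 636 and 685 in the SETDB2-up libraries. It rose with its partner, at log2 fold changes of 0.37 and 0.29 (adjusted p 0.0118 and 0.00308), and the ratio had a log2 difference of 0.07 (adjusted p 0.752). Leaving out SETDB2-up library 1 or 2 left 2 loci that rose, and leaving out library 3 gave 11. Gm31914 did not pass without either of libraries 1 and 2, Gm26782 without library 2 or with a GC correction (log2 fold change 0.22, adjusted p 0.116), and Gm30934 without library 1 or without NC-up library 2.

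Besides Gm35934, the ratio rose at A830082K12Rik, where Nr2f1 fell, and at A030001D20Rik inside Rasip1. Their log2 differences were 0.97 and 0.45 (limma adjusted p 0.0198 and 0.035). Neither lncRNA passed the test by itself, and the ratios did not pass in 9 and 12 of 15 other settings.

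Imprinted loci hold several of the most abundant lncRNAs. Rian, made from the maternal chromosome at the Dlk1-Dio3 domain, reaches 474 bp into the gene model of the retrotransposon-derived Rtl1 over an intron. It was at 4776, 4594 and 4532 in the NC-up libraries and 5893, 5912 and 5060.4 in the SETDB2-up libraries. All SETDB2-up libraries were higher, library 3 the least, and the log2 difference between the group means was 0.28 ± 0.06 (SE), with an adjusted p of 0.00604 from limma. Meg3, the neighbouring lncRNA on the same strand, was at 23834, 22218 and 18130.3 in the NC-up libraries and 21277, 24935 and 13224 in the SETDB2-up libraries. There the groups overlap, with the lowest value in SETDB2-up library 3, and the log2 fold change was -0.15 ± 0.15 SE (adjusted p 0.52). Without that library the log2 fold change of Meg3 was 0.12 (adjusted p 0.333), and with it as the only SETDB2-up library it was -0.68 (adjusted p 0.000695). Rtl1, which faces both, was at 5043, 4786 and 3909.8 against 4479, 5346 and 3177 (adjusted p 0.617). The rise of Rian did not pass with a GC correction or without SETDB2-up libraries 1 and 2.

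Snhg14 (chr7:59272737-60450177, minus strand) runs through a cluster of small RNA genes and across Ube3a, a ubiquitin ligase whose paternal copy it is known to silence in neurons. It was at 11761, 11858 and 12160.2 in the NC-up libraries and 12109, 11107 and 12543 in the SETDB2-up libraries. The groups overlap, and the log2 difference between the group means was -0.00 ± 0.06 (SE), with an adjusted p of 0.982 from limma. With a GC correction Snhg14 passed the test as a fall (log2 fold change -0.29, adjusted p 0.0241). Ube3a was at 1758, 1904 and 1789 against 2543, 2345 and 2115, with all SETDB2-up libraries higher (log2 fold change 0.36, adjusted p 0.00201). That rise, too, did not pass with a GC correction or without SETDB2-up libraries 1 and 2. The ratio of the pair did not pass the test (log2 difference -0.36, adjusted p 0.24). Per kb of exon the mean over the libraries was 457 normalised reads for Snhg14 and 101 for Ube3a.

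Kcnq1ot1, which silences neighbours of Kcnq1 on the paternal chromosome, was at 226, 237 and 204 in the NC-up libraries and 296, 342 and 170.4 in the SETDB2-up libraries. SETDB2-up held both the highest and the lowest library, and the log2 fold change was 0.22 (limma adjusted p 0.444). Without SETDB2-up library 3, the lowest, it passed the test at 0.52 (adjusted p 0.00928). Airn, which silences Igf2r in cis, was at 50.9, 38.3 and 67.0 in the NC-up libraries and 58.9, 38.7 and 38.4 in the SETDB2-up libraries. The groups overlap, with a log2 fold change of -0.19 (adjusted p 0.689).

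**Figure D5:**
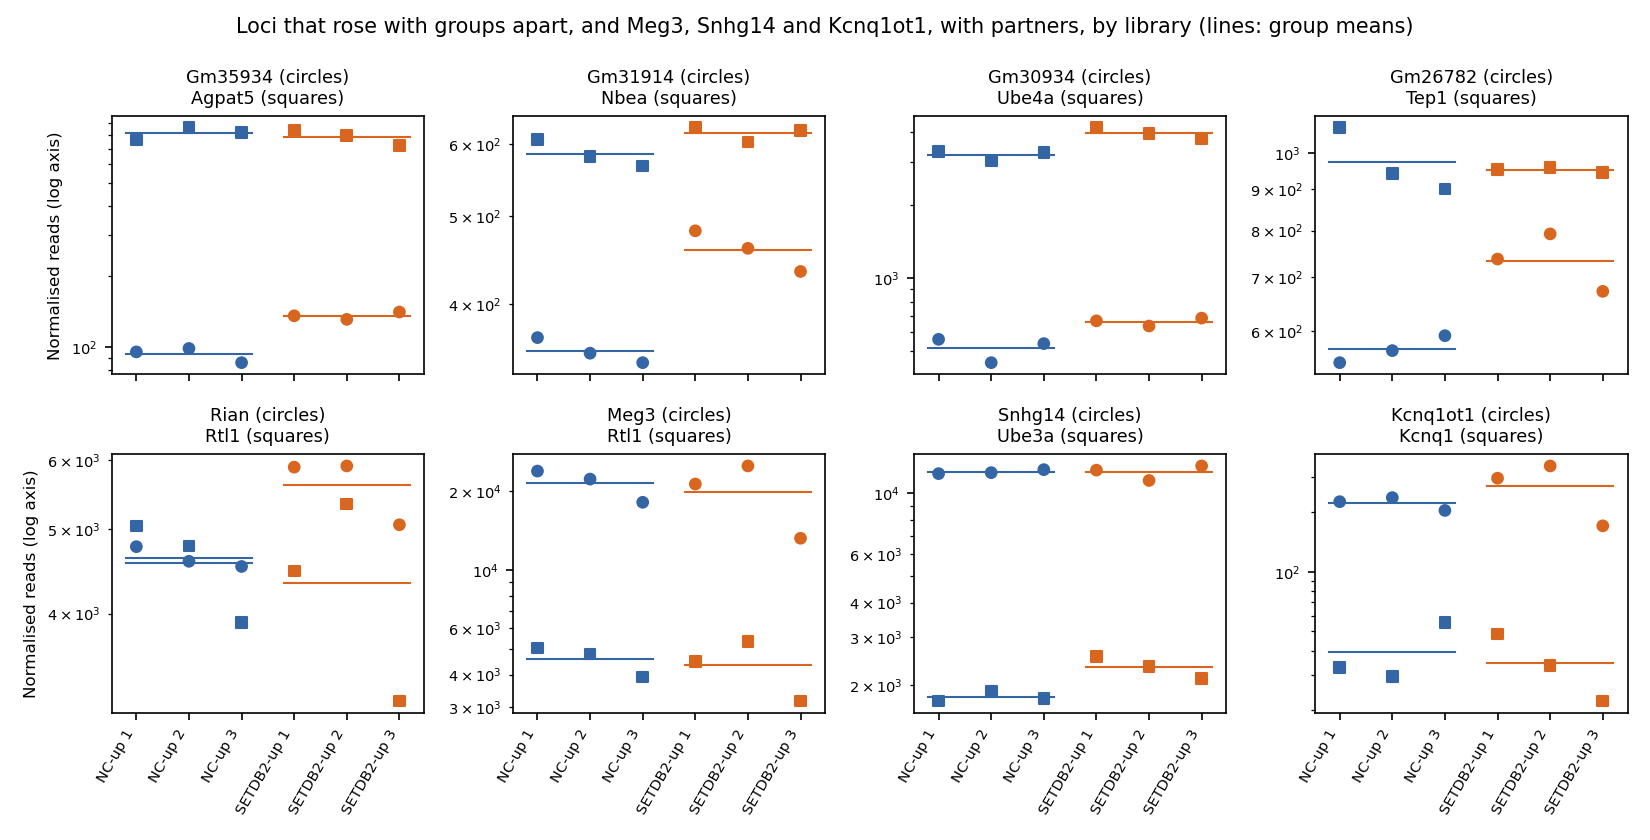
Normalised reads on a log axis (vertical) in each of the 6 libraries (horizontal) for 5 loci that rose and for Meg3, Snhg14 and Kcnq1ot1 (circles) with their partners (squares), blue for NC-up and orange for SETDB2-up, with lines at the group means. Rian lies at 4532 to 4776 in NC-up and 5060 to 5912 in SETDB2-up, while Meg3 overlaps between the groups and Ube3a, facing Snhg14, is higher in all SETDB2-up libraries.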

How the data were processed

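Trigeminal ganglion RNA of 6 libraries was selected by poly-A tail and prepared with a strand-specific kit, per the labels' protocols. FastQC, HISAT2 and GRCm38 are named in the submitters' processing notes; no source used here gives the counter, its strand setting or the annotation. The deposited values are a normalised signal, read counts that the authors divided by 1 factor per library, as the values show: 100% are whole multiples of the library's step (tolerance 0.001 read). The members, lists and tests were chosen with earlier results of these data known.

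Since the values are normalised, limma 3.58.1 (R 4.3.3, mean-variance trend) on log2(value + 1) was the test, over 16387 genes that reached 1 in 3 or more libraries, with Benjamini-Hochberg adjustment and a threshold of 0.05. EdgeR 4.0.16 (which calls 125 loci lower and 6 higher) and DESeq2 1.42.0 on recovered reads were alternatives. The scripts were tested on simulated data. Partner exons and exon lengths came from GENCODE M21 (GRCm38), for 651 loci, and start windows from RefSeq.

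Named loci were the 8 largest falls and up to 6 rises with groups apart, the 4 highest means, up to 4 opposite pairs, up to 6 symbols ending in os, as or ot with or without a number, the most abundant of each partner family and a list of imprinted and earlier noted lncRNAs. Others are said to be chosen after their values were seen, or are named because 5 or fewer passed in a family. A few named loci are not reported here. Fold changes are on the log2(value + 1) scale and understate changes of weak loci. A correction for GC content was void for the counts of loci, since 61.1% of the loci had a GC value, under the 80% set.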

Additional observations from a re-analysis of the deposited data

How the results depend on the processing

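The 126 falls numbered 121 with DESeq2, 125 with edgeR and 126 at a pseudocount of 0.1 or with no filter, and 85 to 120 when 1 library was left out. Rises numbered 2 to 11, changes of at least 2-fold 45 to 55, lower ratios 19 to 42 and higher ratios 0 to 3 when 1 library was left out. Without SETDB2-up libraries 1 and 2 the counts were 47, 0, 30, 0 and 0 in that order. With at least 50% of the span overlapped, 353 loci remained in the set and the counts were 68, 2, 25, 35 and 1. At a mean of at least 50 (359 loci), 32 loci passed 2-fold. EdgeR on recovered reads gave 119 lower ratios with TMM and 119 with RLE factors. Fewer libraries or loci enter these settings, except with edgeR, where the cause was not tested. In settings chosen after seeing the data, 1 locus per partner left 123 falls and 5 rises, and leaving out loci under a gene of their own strand left 125 and 5.

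With the replicate number as a block, 137 loci fell, 9 rose, 2 ratios fell and 0 rose. Deviations of same-numbered libraries correlated at 0.038, 0.036 and 0.048, each the highest for its number but under 0.1. Those of differently numbered libraries correlated at -0.0347 to -0.00557. The labels do not say that the numbers are pairs, and the main test does not take them so. Whether the libraries were paired was not tested. With the block and the GC correction together, the log2 fold change of Mast1 was 0.137 and that of Calm3 0.0938, both reversed in sign and past the threshold (adjusted p 0.0129 and 0.0295 by limma), and the cause was not tested. Of 40 named lncRNAs, 21 passed the test and 9 of these did so in every alternative run. Among those 9, only Gm46526 and Fam219aos had a GC value, so the GC corrections were not run on the others. Of the 40, 19 did not pass, and 5 of these passed in some alternative. Of 15 named ratios that passed, 0 did so in every alternative. The median of all genes moved by under 0.01 (log2) between scalings. Loci near 20 reads carry large counting error, which limits what could pass there.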
